A study of Homo sapiens with 8 samples.

Results

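The genes of the DNA replication machinery were followed through a human hepatic cell line, an edited line made from it, and the edited line after bioprinting. The set holds 45 protein-coding genes, chosen by name from the proteins that license origins, unwind DNA, synthesise and join the new strands, and supply nucleotides. All 45 were found among the 58735 genes of the deposited expression table, and all 45 passed the filter on low values, as did 14349 genes in all. M14A printed (2 libraries) is the edited line taken from flasks and printed in the GP bioink; constructs were frozen in liquid nitrogen at 4 h and ground. M14A plate (3 libraries) is the same edited line from culture flasks, and both M14A groups carry the genotype label FoxM1/HNF4A transfected. HepaRG plate (3 libraries) is the parental line with the genotype label WT, also from flasks. Cells from flasks were instead lifted off and spun down before RNA was taken in TRIzol, as for the constructs, and the effects of printing and of collection cannot be told apart. Whether M14A is 1 clone, and whether replicates came from separate cultures, is not given in the sources used here, so p-values reflect library-to-library spread alone, which may be technical.

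DNA replication begins when the origin recognition complex (ORC1 to ORC6) with CDC6 and CDT1 loads rings of MCM2 to MCM7 onto DNA, a step that geminin (GMNN) blocks by binding CDT1. CDC45 and the GINS complex (GINS1 to GINS4) join the ring to form the CMG helicase, primase and polymerase alpha lay down primers, and polymerases delta and epsilon extend them on the PCNA clamp that RFC loads. Many of these genes are transcribed late in G1 and in S phase under E2F factors. In liver, hepatocytes are mostly quiescent and switch these genes on during regeneration, while a dividing progenitor line such as HepaRG expresses them in culture. RNA was measured in bulk, so fewer cells in S phase and less RNA per cell cannot be told apart.

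The promoters of 6 members are shown because these genes carry results below. GINS1 and GINS2 encode subunits of a single complex and were called in opposite directions after printing at the deposited scaling, MCM2, CDC6 and FEN1 fell after printing, and TYMS was higher in the edited line. Each sequence runs 5′ to 3′ on the gene's strand, in a window that lies mostly upstream of the RefSeq start site on GRCh38.p14, with E2F-type matches in capitals; FEN1 has none.
GINS1: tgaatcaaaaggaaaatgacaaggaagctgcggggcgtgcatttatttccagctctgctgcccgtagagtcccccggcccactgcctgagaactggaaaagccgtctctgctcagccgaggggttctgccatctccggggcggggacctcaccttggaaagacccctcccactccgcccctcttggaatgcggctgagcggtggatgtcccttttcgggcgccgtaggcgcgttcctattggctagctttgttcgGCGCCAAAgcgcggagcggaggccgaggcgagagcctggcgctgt
GINS2: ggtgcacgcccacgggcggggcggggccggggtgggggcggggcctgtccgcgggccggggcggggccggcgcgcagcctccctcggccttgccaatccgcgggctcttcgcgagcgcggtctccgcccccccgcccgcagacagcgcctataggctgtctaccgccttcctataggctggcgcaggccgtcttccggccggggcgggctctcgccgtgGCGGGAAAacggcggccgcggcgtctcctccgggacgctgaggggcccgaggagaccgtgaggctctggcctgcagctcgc
MCM2: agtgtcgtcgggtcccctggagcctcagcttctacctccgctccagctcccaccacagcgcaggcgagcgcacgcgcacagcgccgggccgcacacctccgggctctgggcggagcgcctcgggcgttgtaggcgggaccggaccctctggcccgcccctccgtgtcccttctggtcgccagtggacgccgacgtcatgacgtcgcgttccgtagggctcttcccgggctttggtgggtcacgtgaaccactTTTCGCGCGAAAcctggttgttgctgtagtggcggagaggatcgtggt
CDC6: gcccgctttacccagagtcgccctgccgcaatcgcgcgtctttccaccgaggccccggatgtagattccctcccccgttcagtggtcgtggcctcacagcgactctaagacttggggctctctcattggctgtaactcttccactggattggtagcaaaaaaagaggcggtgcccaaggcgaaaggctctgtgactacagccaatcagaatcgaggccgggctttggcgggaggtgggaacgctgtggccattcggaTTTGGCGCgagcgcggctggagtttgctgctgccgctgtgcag
FEN1: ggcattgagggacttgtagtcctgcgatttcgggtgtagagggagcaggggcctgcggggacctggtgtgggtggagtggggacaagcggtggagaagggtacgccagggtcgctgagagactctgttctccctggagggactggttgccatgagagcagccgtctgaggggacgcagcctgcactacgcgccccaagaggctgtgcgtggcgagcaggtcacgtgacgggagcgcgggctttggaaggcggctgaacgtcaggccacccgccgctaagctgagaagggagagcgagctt
TYMS: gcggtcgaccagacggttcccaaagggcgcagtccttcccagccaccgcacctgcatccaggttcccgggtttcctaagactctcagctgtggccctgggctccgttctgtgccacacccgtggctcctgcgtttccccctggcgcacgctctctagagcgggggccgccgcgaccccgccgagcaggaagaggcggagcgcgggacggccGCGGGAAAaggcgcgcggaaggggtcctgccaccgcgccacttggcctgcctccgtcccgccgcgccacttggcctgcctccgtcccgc
In that order the windows are chr20:25407423-25407722 on the plus strand, chr16:85688905-85689204 on the minus strand, chr3:127598161-127598460, chr17:40287629-40287928, chr11:61792661-61792960 and chr18:657403-657702 on the plus strand. The match searched was TTTCCCGC, TTTGGCGC, TTTGCCGC or TTTCGCGC on either strand, and in MCM2 a match on each strand overlaps the other. RefSeq windows were found for 39 members, and 19 of these genes (48.7%) held at least 1 match in any of their windows, against 6.78% of 9033 tested protein-coding genes with windows of the same length. The median GC content of the windows was 65.3% for members and 64.7% for those tested genes. CCAAT, on either strand, was held by 61.5% of members and 43.4% of the tested genes. Matches were found on both sides of the printing comparison: 3 of 4 members called lower with a window (CDC6, GINS1 and MCM2, but not FEN1) and 2 of 5 called higher (GINS2 and GMNN) held an E2F-type match.

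Levels are given as deposited, in FPKM, which scales fragments by gene length and by a denominator for each library. That denominator was 0.818 to 1.20 times the reads of the library. The values correspond to library depths of 15632154 to 19148262 reads. The authors' scaling follows the bulk of genes, so a change is a change relative to the other genes in the library. Fixed markers of hepatic and other cell types were read, with no test of cell identity. Of 8 hepatocyte genes 7 reached 1 FPKM in at least 2 libraries, and their summed level was 1108 and 960.5 FPKM in printed cells, 603 to 913 FPKM in M14A plate and 154 to 171 FPKM in HepaRG plate. SERPINA1, KRT8 and KRT18 made up most of that sum. In HepaRG plate ALB stood at 2.01 to 2.42 FPKM and APOA1 at 0.122 to 0.369 FPKM, against 97.3 to 111 FPKM for KRT8. ALB, APOA1, KRT8 and KRT18 were higher in both printed libraries than in all M14A plate libraries. HNF4A went the other way, at 17.1 and 13.6 FPKM in printed cells, against 37.9, 43.1 and 41.7 FPKM in M14A plate. SERPINA1 overlapped, as did APOB, at 17.7 and 34.6 FPKM in printed cells, against 23.4, 72.7 and 65.1 FPKM in M14A plate. TTR stayed at or below 0.283 FPKM. The endothelial gene CDH5 was listed at 0 in all 8 libraries, and the leukocyte gene PTPRC stood at 0 to 0.0208 FPKM. The progenitor marker EPCAM was listed at 0 in all 5 M14A libraries and stood at 0.0863 to 0.253 FPKM in HepaRG plate. Summed levels of 7 fibroblast and stellate genes were 84.3 and 92.7 FPKM in printed cells, 40.6 to 68.8 FPKM in M14A plate and 19.8 to 21.4 FPKM in HepaRG plate, with 5 of 7 genes reaching 1 FPKM in 2 libraries and COL1A2 below 0.01 FPKM throughout. DCN, LUM and ACTA2 made up most of that sum, whereas COL1A1 stood at 0.327 and 0.214 FPKM in printed cells, 0.528 to 1.16 FPKM in M14A plate and 1.80 to 1.98 FPKM in HepaRG plate. COL3A1 and PDGFRB likewise stood lower in all M14A libraries than in HepaRG plate, PDGFRB at no more than 0.136 FPKM against 1.58 FPKM or more. Summed levels of 5 biliary and progenitor genes were 49.96 and 46.4 FPKM in printed cells, 26.0 to 61.1 FPKM in M14A plate and 98.4 to 102 FPKM in HepaRG plate, while KRT7 of that list went the other way, at 6.66 and 4.82 FPKM in printed cells, 1.82 to 2.22 FPKM in M14A plate and 0.455 to 0.468 FPKM in HepaRG plate. The 4 leukocyte genes summed to 9.89 and 11.6 FPKM in printed cells, 6.52 to 10.6 FPKM in M14A plate and 2.24 to 2.84 FPKM in HepaRG plate, and the 4 endothelial genes to at most 2.18 FPKM in any library. Their part in the results below was not tested. In M14A plate, library 1 was the least like its replicates, with correlations across genes of 0.957 and 0.948 against 0.988 between the other two, and the counts of called replication genes are also given without it.

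Replication genes were expressed in every library, over a wide range of levels. The sliding clamp PCNA had the highest mean, at 137 and 141 FPKM in printed cells, 100.3, 113 and 126 FPKM in M14A plate and 109, 106 and 107 FPKM in HepaRG plate. POLA2, the accessory subunit of polymerase alpha, had the lowest mean over the 8 libraries, at 1.14 and 0.969 FPKM in printed cells, 1.56, 1.01 and 1.25 FPKM in M14A plate and 1.29, 1.49 and 1.36 FPKM in HepaRG plate, although POLE2 was lower in M14A plate library 1. Neither PCNA nor POLA2 was called in either comparison. Summed over the 45 genes, the level was 880.0 and 830.2 FPKM in printed cells, 842, 756 and 760.2 FPKM in M14A plate and 830.3, 808 and 833 FPKM in HepaRG plate, so the groups overlapped. As a share of reads the order was different: members took 0.241 and 0.240% of reads in printed cells, 0.289, 0.313 and 0.320% in M14A plate and 0.369, 0.361 and 0.362% in HepaRG plate. The share of reads from mitochondrially encoded genes also differed between the groups, at 13.3 and 16.4% in printed cells, 8.21 to 9.72% in M14A plate and 6.91 to 7.25% in HepaRG plate. Without those reads the members' share was still 0.278 and 0.287% in printed cells, 0.321, 0.341 and 0.351% in M14A plate and 0.397, 0.388 and 0.390% in HepaRG plate.

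**Figure D1:**
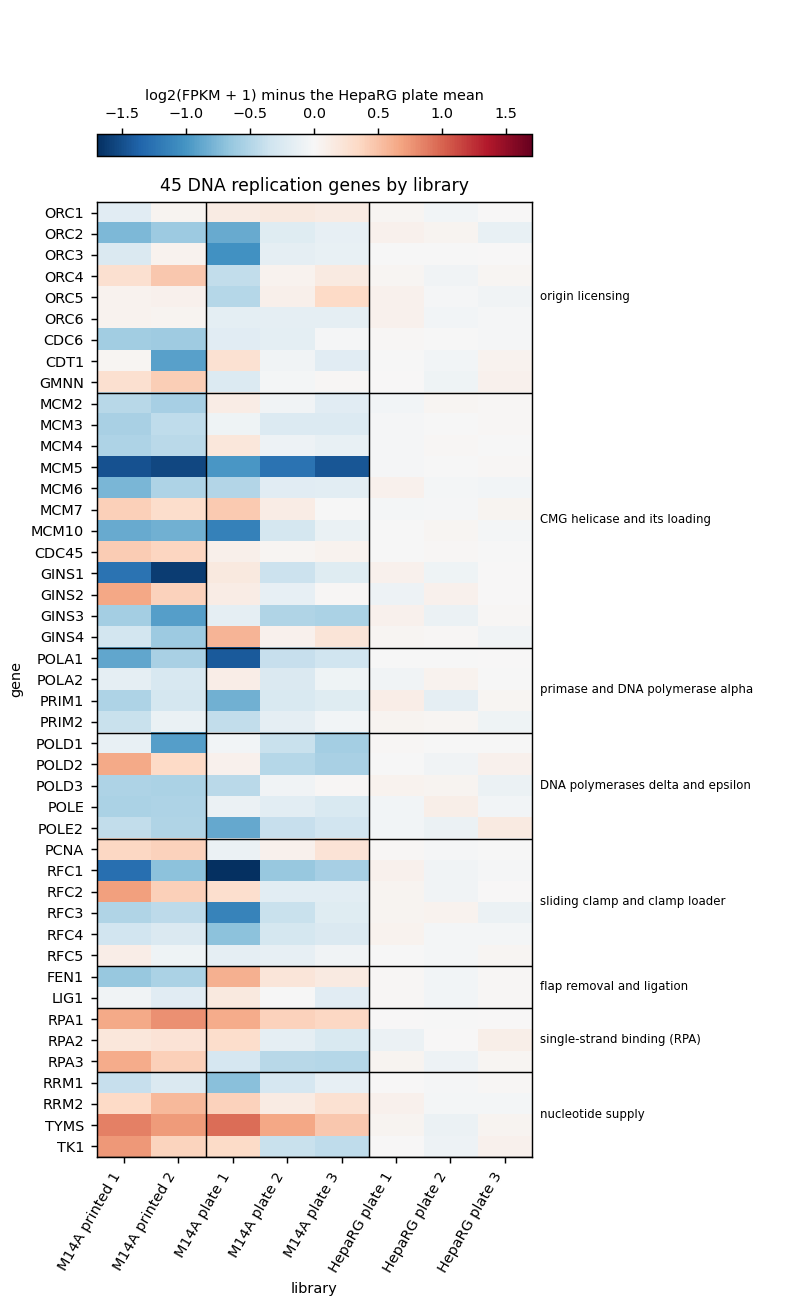
Level of each replication gene (rows, by role) in each of the 8 libraries (columns), as log2(FPKM + 1) minus the mean of the 3 HepaRG plate libraries; blue is below that mean and red above it. MCM5 is blue in all 5 M14A libraries, TYMS and RPA1 are red in all 5, and GINS1 is dark blue in the 2 printed libraries.

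Setting M14A plate against HepaRG plate shows the edited line beside its parent in planar culture. Of the 45 replication genes, 6 passed the test. The helicase subunit MCM5, the clamp loader subunit RFC1, the polymerase epsilon subunit POLE2 and the single-strand binding subunit RPA3 were lower in M14A plate, and RPA1 and thymidylate synthase (TYMS) were higher. Thus 4 members (8.89%) were called lower and 2 (4.44%) higher, against 14.7% and 16.1% of all genes tested, so both shares lay under the background (13.3% of members and 30.9% of all genes in either direction). Levels that did not overlap between the lines were more frequent on the lower side: 20 members (44.4%) lay wholly lower in M14A plate and 7 (15.6%) wholly higher, against 27.4% and 25.7% of all genes. The median log2 fold change of the 45 members was -0.14, against -0.04 over all genes tested, and 77.8% of members lay below 0, against 53.4% of all genes. Another 6 members had an unadjusted p under 0.05 without being called (13.3%, against 11.6% of all genes), all of them lower in M14A plate. Calls are from limma on log2(FPKM + 1), with an adjusted p (Benjamini-Hochberg, all genes) below 0.05. Fold changes are on that scale and understate the change of low genes. The counts depended on single libraries. Without M14A plate library 1, 11 members were lower (24.4%, against 22.7% of all genes) and 2 higher (4.44%, against 20.3%). Without M14A plate library 3, 8 were lower (17.8%, against 15.3%). Without HepaRG plate library 1, 2 or 3, MCM5 and TYMS were the only calls, while 8.61 to 8.73% of all genes were lower and 11.1 to 11.5% higher. At equal FPKM totals 11 members were lower (24.4%, against 23.9%) and 2 higher (4.44%, against 13.9%). At equal FPKM totals, or without M14A plate library 1 or 3, the lower share of members was thus no longer under that of all genes.

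Within the helicase, MCM5 was the single subunit called. It lies on chromosome 22 from 35400063 to 35425430 (ENSG00000100297, plus strand, GRCh38) and stood at 10.4, 8.58 and 7.31 FPKM in M14A plate, against 21.4, 21.8 and 22.2 FPKM in HepaRG plate. Every M14A plate library lay below every HepaRG plate library, and the log2 fold change was -1.23 (SE 0.14, adjusted p = 2.3e-04). It stayed called under all 21 alternative settings, with log2 fold changes from -1.44 to -1.12. The other ring subunits, which assemble with MCM5 in equal numbers, did not pass. MCM2 averaged 21.9 ± 2.55 FPKM in M14A plate and 22.5 ± 0.693 FPKM in HepaRG plate (SD, n = 3 each). MCM4 averaged 29.1 ± 3.78 FPKM in M14A plate and 29.1 ± 0.421 FPKM in HepaRG plate. The log2 fold changes of MCM2, MCM3, MCM4, MCM6 and MCM7 lay between -0.30 (MCM6) and 0.19 (MCM7), with adjusted p of at least 0.14. A ratio of genes within a library does not depend on how libraries are scaled, but it was not corrected for GC content. The ratios given here were chosen after values were seen and are descriptions. MCM5 over the mean of these 5 genes was 0.267, 0.253 and 0.224 in M14A plate, against 0.603, 0.607 and 0.611 in HepaRG plate, so the groups were far apart. In printed cells the ratio was 0.232 and 0.220, inside or just under the M14A plate range. CDC45, GINS1, GINS2, GINS3, GINS4 and MCM10, which complete or load the helicase, were not called, with log2 fold changes from -0.52 (MCM10) to 0.29 (GINS4).

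Licensing factors were not called in this comparison. The 9 genes ORC1 to ORC6, CDC6, CDT1 and GMNN had log2 fold changes from -0.44 (ORC3) to 0.15 (ORC1) and a median of -0.08. CDC6, the ATPase that recruits CDT1 and the MCM ring to ORC, averaged 9.04 ± 0.646 FPKM in M14A plate and 9.92 ± 0.148 FPKM in HepaRG plate. The 95% interval of its log2 fold change ran from -0.37 to 0.12. In the primase and polymerase alpha group none of 4 genes was called, and the member with the highest mean, the large primase subunit PRIM2, stood at 3.62, 4.54 and 4.95 FPKM in M14A plate, against 5.35, 5.29 and 4.86 FPKM in HepaRG plate. The 2 groups overlapped for PRIM2. The catalytic subunit POLA1 stood at 1.72, 4.58 and 4.80 FPKM in M14A plate, against 6.34, 6.33 and 6.35 FPKM in HepaRG plate. All M14A plate values of POLA1 lay lower, but library 1 lay far under the other two and the gene was not called (log2 fold change -0.72, SE 0.27, adjusted p = 0.074). It was called without M14A plate library 1 (-0.37) or library 3 (-0.91).

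Among the polymerase, clamp loader and RPA genes the calls were less even. POLE2, a non-catalytic subunit of polymerase epsilon, stood at 1.21, 2.06 and 2.20 FPKM in M14A plate, against 2.89, 2.75 and 3.47 FPKM in HepaRG plate (limma log2 fold change -0.53, SE 0.16, adjusted p = 0.035). RFC1, the large subunit of the clamp loader, stood at 3.05, 7.94 and 8.48 FPKM in M14A plate, against 13.8, 12.4 and 12.8 FPKM in HepaRG plate. The groups of both genes were apart, and in both M14A plate library 1 was the lowest. The log2 fold change of RFC1 was -0.998 (SE 0.31, adjusted p = 0.041), and -0.60 without M14A plate library 1. RPA1, the large DNA-binding subunit of RPA, stood at 22.5, 18.9 and 18.4 FPKM in M14A plate, against 14.2, 14.02 and 14.2 FPKM in HepaRG plate (limma log2 fold change 0.46, SE 0.12, adjusted p = 0.021). RPA3, the small subunit of the same trimer, stood at 12.4, 10.8 and 10.7 FPKM in M14A plate, against 15.9, 14.4 and 15.8 FPKM in HepaRG plate (limma log2 fold change -0.41, SE 0.12, adjusted p = 0.035). The subunits thus differed in opposite directions, and RPA2 overlapped between the lines. RPA3 over RPA1 was 0.552, 0.571 and 0.583 in M14A plate, against 1.12, 1.03 and 1.11 in HepaRG plate. The calls of POLE2, RFC1, RPA1 and RPA3 were each lost without HepaRG plate library 1, 2 or 3, at adjusted p of 0.074 to 0.14. POLE2 was also lost without either printed library or with only the 2 groups in the fit, RPA3 without M14A plate library 2 or 3 and under the replicate block, and RFC1 at a pseudocount of 0.1.

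Nucleotide supply was led by TYMS, which makes thymidylate and is a target of the drug fluorouracil. TYMS stood at 42.4, 34.2 and 29.6 FPKM in M14A plate, against 22.2, 19.9 and 22.1 FPKM in HepaRG plate. The lines did not overlap, with a log2 fold change of 0.69 (SE 0.15, adjusted p = 0.0090) that passed under all 21 alternatives. Of its exon bases 46.6% also lie in other genes, ENOSF1 and TYMSOS, so its count may share reads with them. With each library's trend over GC content and gene length removed its log2 fold change was 0.45. Thymidine kinase TK1, the salvage route to the same nucleotide, stood at 76.0, 46.0 and 44.4 FPKM in M14A plate, against 60.6, 56.6 and 63.6 FPKM in HepaRG plate, with library 1 above and libraries 2 and 3 below the HepaRG libraries. The subunits of ribonucleotide reductase, RRM1 and RRM2, were not called (log2 fold changes -0.38 and 0.26, adjusted p = 0.11 and 0.15). RRM2 over RRM1 was 1.11, 0.674 and 0.661 in M14A plate, against 0.522, 0.493 and 0.480 in HepaRG plate.

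**Figure D2:**
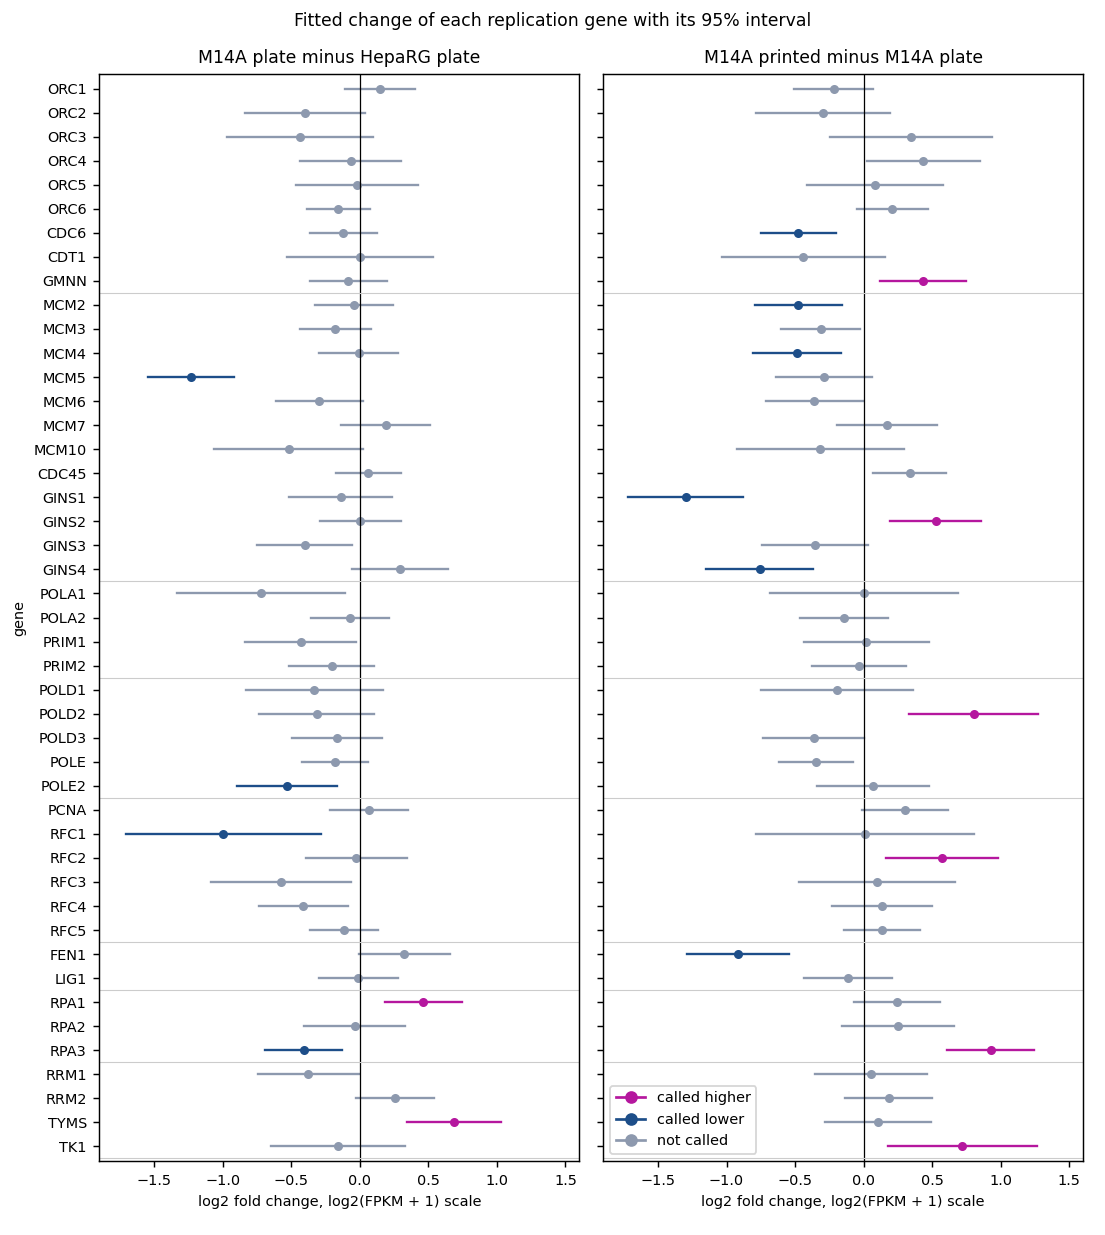
Fitted log2 fold change of each replication gene on the log2(FPKM + 1) scale, with its 95% interval, for M14A plate minus HepaRG plate (left) and M14A printed minus M14A plate (right). Left, 4 genes are called lower and 2 higher; right, 6 are called lower and 6 higher, and of the latter GINS2, GMNN, RFC2 and TK1 turn negative at equal FPKM totals.

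The comparison of M14A printed with M14A plate asks what differs between cells collected 4 h after printing and the same line in flasks. Replication genes went both ways. The helicase subunits MCM2, MCM4, GINS1 and GINS4, the licensing factor CDC6 and the flap nuclease FEN1 fell after printing. GINS2, the licensing inhibitor GMNN, the polymerase delta subunit POLD2, the clamp loader subunit RFC2, RPA3 and TK1 rose on the deposited scale. The calls were 6 lower (13.3%) and 6 higher (13.3%), against 15.5% and 17.7% of all genes tested, again under the background (26.7% of members and 33.2% of all genes in either direction). The median log2 fold change was 0.02 for members and 0.01 for all genes tested. Another 5 members had an unadjusted p under 0.05 without being called (11.1%, as for all genes). With FPKM totals made equal, the median of all genes was -0.50, 27 of 45 members were called lower and 0 higher by limma, against 45.7% and 3.27% of all genes, and GINS2, GMNN, RFC2 and TK1 had log2 fold changes of -0.15, -0.28, -0.15 and -0.03. Relative to the median of all genes on that scale, these genes stood at 0.35, 0.23, 0.35 and 0.47, and POLD2 and RPA3 at 0.56 and 0.71. Without M14A plate library 1 the counts were 13 lower and 11 higher (28.9% and 24.4% of members, against 27.1% and 28.4% of all genes), and all 12 calls were among them. The higher count was 1 (2.22%) without M14A printed library 1 or M14A plate library 2, against 7.99% and 13.1% of all genes. It was 3 (6.67%) without M14A printed library 2, against 10.9%, and the lower count was then 2 (4.44%), against 8.62%. Without HepaRG plate library 1, 2 or 3 the higher count was 3, 3 and 2, against 14.4 to 14.6% of all genes.

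The GINS subunits changed in opposite directions. GINS1 stood at 2.70 and 1.88 FPKM in printed cells, against 8.91, 5.85 and 6.63 FPKM in M14A plate, the largest fall among the members (log2 fold change -1.30, SE 0.18, adjusted p = 0.0017). GINS4 stood at 2.59 and 1.89 FPKM in printed cells, against 5.65, 3.69 and 4.20 FPKM in M14A plate (limma log2 fold change -0.76, SE 0.17, adjusted p = 0.011). GINS2 stood at 11.2 and 9.13 FPKM in printed cells, against 7.42, 5.98 and 6.83 FPKM in M14A plate (limma log2 fold change 0.53, SE 0.14, adjusted p = 0.024, but -0.15 at equal FPKM totals). No printed library overlapped the M14A plate range in these 3 genes. GINS3, the fourth subunit, averaged 2.24 ± 0.583 FPKM in printed cells (n = 2) and 3.14 ± 0.649 FPKM in M14A plate (n = 3) and was not called. The 4 proteins form a complex with 1 copy of each. Within a library, GINS1 over GINS2 was 0.241 and 0.206 in printed cells, against 1.20, 0.979 and 0.971 in M14A plate and 1.33, 1.04 and 1.16 in HepaRG plate. GINS4 over GINS2 was 0.232 and 0.207 in printed cells, against 0.761, 0.618 and 0.615 in M14A plate. The printed libraries thus stood apart from all 6 flask libraries in GINS1 over GINS2, whatever the scaling of libraries. These genes were paired after their values were seen, so the separation is a description and adds no support to the calls. The ratio was not corrected for GC content, which is 45.7% for GINS1 and 54.2% for GINS2. With each library's GC and length trend removed, GINS1 was still called lower and GINS2 higher. GINS1 passed under all 21 alternatives. GINS4 lost its call without M14A printed library 2 and in a fit of only the 2 groups. GINS2 lost its call without M14A printed library 1, without M14A plate library 2 or without HepaRG plate library 3. Of the exon bases of GINS4, 23.6% also lie in other genes, as do 23.6% of those of MCM2.

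**Figure D3:**
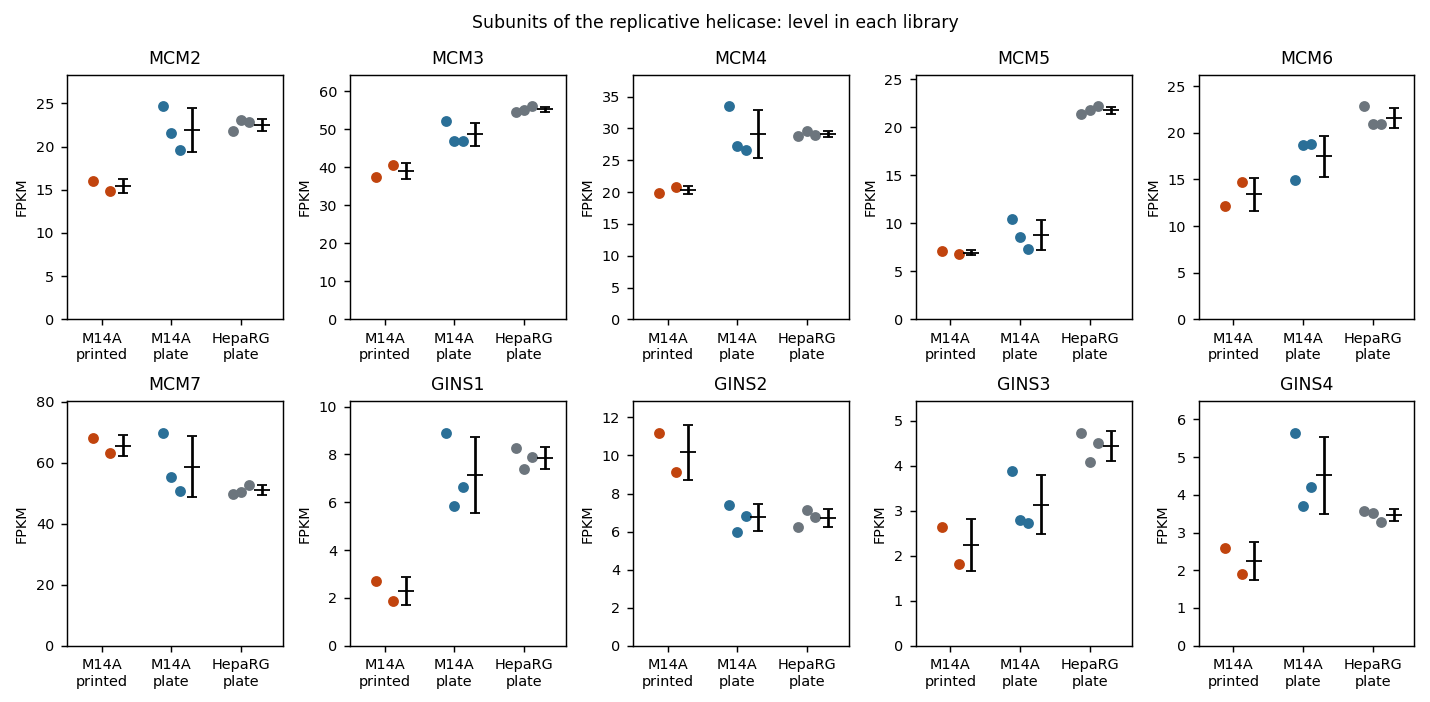
FPKM of the MCM ring subunits and the GINS subunits in each library (points), with the group mean and SD beside them (bars; n = 2 printed, 3 in each plate group). MCM5 separates both M14A groups from HepaRG plate; GINS1 and GINS4 are lowest in printed cells, where GINS2 is highest on the deposited scale, though lower than in M14A plate at equal FPKM totals.

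In the MCM ring, MCM2 stood at 16.0 and 14.9 FPKM in printed cells, against 24.6, 21.6 and 19.6 FPKM in M14A plate (limma log2 fold change -0.48, SE 0.14, adjusted p = 0.030). MCM4 stood at 19.9 and 20.8 FPKM in printed cells, against 33.4, 27.3 and 26.6 FPKM in M14A plate (limma log2 fold change -0.49, SE 0.14, adjusted p = 0.029). In both genes the printed libraries lay below every plate library of either line. MCM3, MCM5 and MCM6 also lay below the M14A plate range without being called, at log2 fold changes of -0.31, -0.29 and -0.36. MCM7 overlapped and had the highest level of the ring, at 68.1 and 63.1 FPKM in printed cells, against 69.8, 55.4 and 50.9 FPKM in M14A plate. CDC45 averaged 15.2 ± 0.580 FPKM in printed cells, above all flask libraries, and 11.8 ± 0.272 FPKM in M14A plate. It was not called (limma log2 fold change 0.34, SE 0.12, adjusted p = 0.054). It was called higher at a pseudocount of 0.01, with no filter, at median-ratio scaling and without M14A plate library 1. At equal FPKM totals it was called lower (-0.37). MCM10 was not called (-0.32). The calls of MCM2 and MCM4 were both lost without either printed library, without M14A plate library 2 or without any 1 HepaRG plate library, at adjusted p of 0.057 to 0.14. Under the GC and length correction the log2 fold change of MCM4 was -0.30.

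Of the 9 licensing genes, CDC6 was called lower and GMNN higher. CDC6 stood at 6.24 and 6.19 FPKM in printed cells, against 8.59, 8.75 and 9.78 FPKM in M14A plate (limma log2 fold change -0.48, SE 0.12, adjusted p = 0.017). The printed values lay close together and below all 6 flask libraries, but the call was lost without either printed library. GMNN stood at 14.9 and 16.6 FPKM in printed cells, against 10.1, 11.9 and 12.3 FPKM in M14A plate (limma log2 fold change 0.43, SE 0.14, adjusted p = 0.040). The groups did not overlap, yet the call of GMNN was the least stable of the 12: it was lost under 12 of 21 alternatives and turned negative under 2 more, to -0.28 at equal FPKM totals and -0.11 with mitochondrial genes left out of those totals, and stood at 0.01 with the GC and length trend removed. CDT1 stood at 16.3 and 7.93 FPKM in printed cells, against 19.1, 15.2 and 13.7 FPKM in M14A plate. The 2 printed libraries were farther apart for CDT1 than for any other member, and it was not called (log2 fold change -0.44, SE 0.26, adjusted p = 0.23). The ORC genes were not called, with log2 fold changes from -0.30 (ORC2) to 0.44 (ORC4).

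Among members outside the helicase, FEN1 fell furthest. This nuclease trims the flaps of Okazaki fragments before LIG1 seals them. FEN1 stood at 29.2 and 31.5 FPKM in printed cells, against 71.2, 53.6 and 51.8 FPKM in M14A plate and 47.1, 45.01 and 46.9 FPKM in HepaRG plate. Both printed libraries lay under all flask libraries (log2 fold change -0.92, SE 0.16, adjusted p = 0.0041), and the call held under all 21 alternatives. LIG1 averaged 6.90 ± 0.505 FPKM in printed cells (n = 2) and 7.59 ± 1.06 FPKM in M14A plate (n = 3), with a 95% interval of its log2 fold change from -0.43 to 0.20. FEN1 over PCNA, the clamp that holds it at the fork, was 0.213 and 0.224 in printed cells, against 0.710, 0.476 and 0.411 in M14A plate and 0.433, 0.424 and 0.437 in HepaRG plate. This ratio was also chosen after values were seen. It was not corrected for GC content either, which is 53.7% for FEN1 and 45.2% for PCNA.

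RPA3, POLD2, RFC2 and TK1 were the other members called higher. RPA3 stood at 24.2 and 20.6 FPKM in printed cells, against 12.4, 10.8 and 10.7 FPKM in M14A plate (limma log2 fold change 0.93, SE 0.14, adjusted p = 0.0020). It was above every flask library, and it passed under all alternatives except equal FPKM totals (0.21, adjusted p = 0.12). RPA1 and RPA2 were not called, and RPA3 over RPA1 was 1.07 and 0.829 in printed cells, against 0.552, 0.571 and 0.583 in M14A plate. POLD2, the second subunit of polymerase delta, stood at 97.4 and 78.4 FPKM in printed cells, against 65.6, 44.2 and 42.1 FPKM in M14A plate (limma log2 fold change 0.80, SE 0.21, adjusted p = 0.018). The catalytic subunit POLD1 overlapped, at 16.9 and 9.20 FPKM in printed cells, against 17.9, 13.95 and 12.03 FPKM in M14A plate. RFC2 stood at 26.4 and 21.3 FPKM in printed cells, against 19.6, 13.9 and 13.9 FPKM in M14A plate (limma log2 fold change 0.57, SE 0.18, adjusted p = 0.039, but -0.15 at equal FPKM totals). The other clamp loader genes, RFC1, RFC3, RFC4 and RFC5, were not called, at log2 fold changes from 0.01 to 0.14. TK1 stood at 101 and 78.5 FPKM in printed cells, against 76.0, 46.0 and 44.4 FPKM in M14A plate (limma log2 fold change 0.72, SE 0.24, adjusted p = 0.047, but -0.03 at equal FPKM totals). In POLD2, RFC2 and TK1, M14A plate library 1 was the highest of its group and nearest to the printed cells. POLD2 was 0.052 at equal FPKM totals (adjusted p = 0.73) and 0.23 with mitochondrial genes left out of those totals, and lost its call without M14A printed library 1 or M14A plate library 2 as well. The calls of RFC2 and TK1 were lost without any 1 library other than M14A plate library 1.

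**Figure D4:**
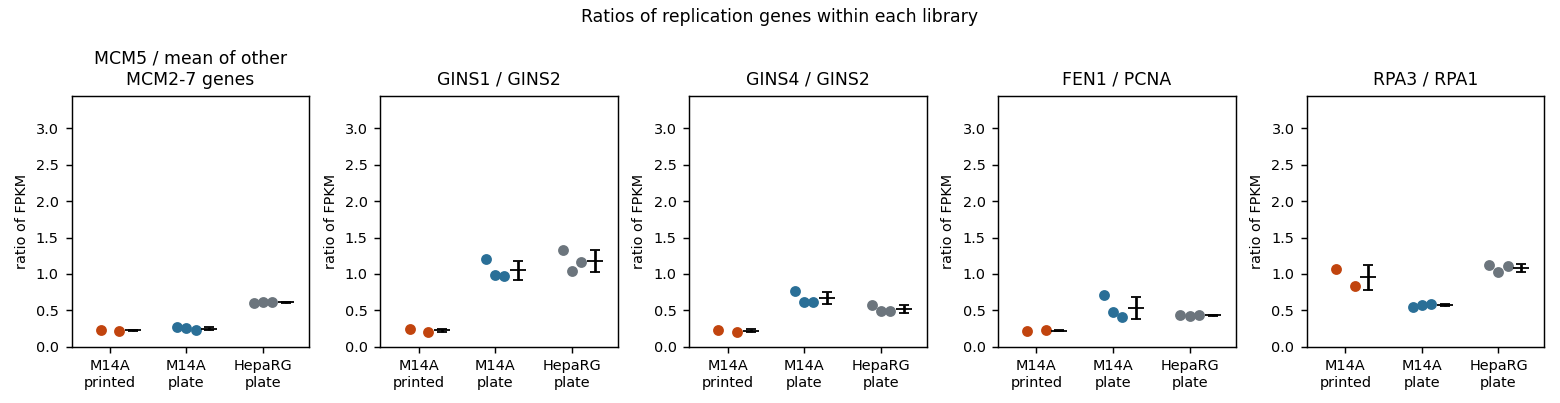
Ratios of FPKM between replication genes within each library (points), with group mean and SD (bars, n = 2 printed and 3 in each plate group). They do not depend on library scaling, are not corrected for GC content and were chosen after values were seen. MCM5 over the other ring genes is 0.220 to 0.267 in the 5 M14A libraries and 0.603 to 0.611 in HepaRG plate; GINS1 over GINS2 and FEN1 over PCNA are lowest in printed cells.

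Differences between libraries of each M14A group went with base composition. Transcript GC content of the members, as the median over GENCODE 29 transcripts, ran from 38.0% (POLE2) to 65.3% (CDT1). M14A plate library 1 was the highest of its group for 24 members and the lowest for 21. Across the 45 members, its difference from the mean of libraries 2 and 3 had a Pearson correlation of 0.75 with GC content (Spearman 0.79). It was lowest for RFC1 (-1.19) and highest for TK1 (0.74). The difference between the printed libraries, 1 minus 2, had a correlation of 0.71 with GC content (Spearman 0.69) and was highest for CDT1 (0.96). M14A plate library 2 minus 3 had a correlation of 0.66 (Spearman 0.60), over smaller differences (-0.25 to 0.21). In HepaRG plate, library 1 minus the mean of libraries 2 and 3 had a correlation of -0.38 (Spearman -0.41), with differences of -0.16 to 0.18. These correlations are across genes of shared libraries and are given as descriptions. The differences between groups had correlations with GC content of 0.22 (Spearman 0.40) for M14A plate minus HepaRG plate and -0.09 (Spearman -0.12) for M14A printed minus M14A plate. With M14A plate libraries 2 and 3 alone these correlations were -0.16 (Spearman -0.01) and 0.18 (Spearman 0.13). The median coefficient of variation of a member was 7.80% over the 2 printed libraries and 18.2% over the 3 M14A plate libraries, against 4.40% over the HepaRG plate libraries. Over M14A plate libraries 2 and 3 alone it was 4.64%. With the GC and length trend of each library removed, M14A plate had 18 members lower and 3 higher relative to HepaRG plate, and the 6 calls above were among them. These are 40.0% and 6.67% of members, against 23.7% and 20.8% of all genes, so the lower share was then above the background. In printed cells 13 were then lower and 8 higher than in M14A plate, with 11 of the 12 calls among them and GMNN lost. These are 28.9% and 17.8% of members, against 21.3% and 23.9% of all genes.

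**Figure D5:**
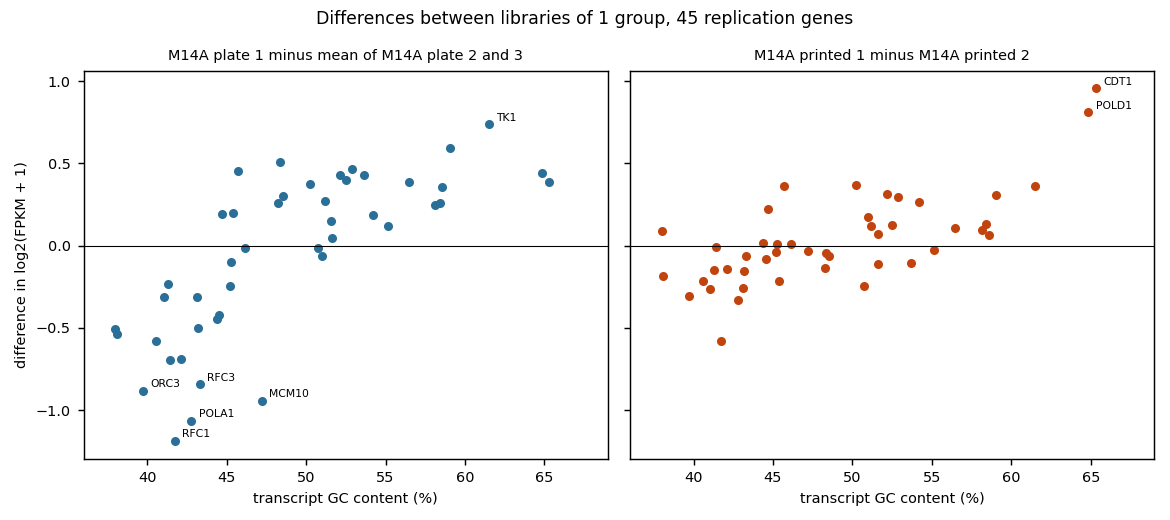
Difference in log2(FPKM + 1) between libraries of a single group for each of the 45 replication genes (points), against transcript GC content in percent; left, M14A plate library 1 minus the mean of libraries 2 and 3, right, M14A printed library 1 minus library 2. In both panels RFC1, which is AT-rich, lies below 0, and TK1 and CDT1, which are GC-rich, lie above it. Not every gene follows: in the right panel POLE2, the most AT-rich member, is at 0.092 and FEN1 at -0.105.

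Other genes of the pathway were read from 4 lists. Over all genes tested, 14.7% were called lower and 16.1% higher in M14A plate relative to HepaRG plate. In printed cells relative to M14A plate these shares were 15.5% and 17.7%. The counts of each list are to be read beside these shares, and no list was tested as a set. For origin firing and fork factors, S-phase chromatin genes, nucleotide enzymes and G1/S control, in this order, median log2 fold changes were -0.35, -0.41, -0.12 and -0.24 in M14A plate relative to HepaRG plate, against -0.04 over all genes. In printed cells relative to M14A plate they were -0.14, -0.33, 0.15 and -0.15, against 0.01 over all genes. Of 24 tested origin firing and fork factors (26 listed), M14A plate had 4 lower and 1 higher relative to HepaRG plate. ATAD5, which unloads PCNA, stood at 0.336, 0.955 and 0.862 FPKM in M14A plate, against 1.81, 2.10 and 2.21 FPKM in HepaRG plate (limma log2 fold change -0.84, SE 0.16, adjusted p = 0.0049). POLD4, the smallest polymerase delta subunit, stood at 7.18, 4.97 and 4.93 FPKM in M14A plate, against 2.12, 2.61 and 2.62 FPKM in HepaRG plate (limma log2 fold change 0.94, SE 0.18, adjusted p = 0.0051). After printing 1 of these factors fell and 2 rose relative to M14A plate. POLE4, a small histone-fold subunit of polymerase epsilon, stood at 55.8 and 45.8 FPKM in printed cells, against 24.6, 18.9 and 16.8 FPKM in M14A plate (limma log2 fold change 1.31, SE 0.18, adjusted p = 0.0015). RNASEH2C, a subunit of the ribonuclease that removes ribonucleotides from DNA, averaged higher as well (log2 fold change 1.08, SE 0.22, adjusted p = 0.0077). It was not called when M14A printed library 1 was omitted (0.91, adjusted p = 0.065).

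Of 8 genes of S-phase chromatin assembly and maintenance, M14A plate had 4 lower and 0 higher relative to HepaRG plate, and printed cells had 3 lower and 0 higher relative to M14A plate. In the first comparison the histone chaperone ASF1A stood at 3.31, 5.13 and 5.01 FPKM in M14A plate, against 13.1, 10.1 and 11.4 FPKM in HepaRG plate (limma log2 fold change -1.20, SE 0.17, adjusted p = 7.6e-04). The remodeller HELLS was lower too (log2 fold change -0.79, SE 0.21, adjusted p = 0.021), but was not called when HepaRG plate library 1 or 3 was omitted. UHRF1 and DNMT1 were the other 2 called, at -0.45 and -0.44. The UHRF1 call was lost without M14A plate library 2 or HepaRG plate library 1 or 2, and the DNMT1 call under 10 of 21 alternatives, each HepaRG plate library left out among them. In the second, UHRF1, which brings the maintenance methyltransferase to new DNA, stood at 3.25 and 3.50 FPKM in printed cells, against 7.72, 7.82 and 7.42 FPKM in M14A plate (limma log2 fold change -0.98, SE 0.13, adjusted p = 0.0014). That methyltransferase, DNMT1, stood at 11.3 and 11.7 FPKM in printed cells, against 24.3, 18.6 and 17.8 FPKM in M14A plate (limma log2 fold change -0.76, SE 0.16, adjusted p = 0.0074). Its call was lost without M14A printed library 1 (adjusted p = 0.0504).

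Of 14 nucleotide enzymes outside the 45 genes, M14A plate had 1 lower and 1 higher relative to HepaRG plate. RRM2B, the p53-induced form of the small ribonucleotide reductase subunit, stood at 12.8, 21.1 and 24.5 FPKM in M14A plate, against 5.94, 6.14 and 5.51 FPKM in HepaRG plate (limma log2 fold change 1.53, SE 0.23, adjusted p = 0.0012). SAMHD1, which degrades deoxynucleotides, was lower (log2 fold change -0.42, SE 0.11, adjusted p = 0.020). It was not called when M14A plate library 2 or HepaRG plate library 2 or 3 was omitted. In printed cells 2 were lower and 3 higher than in M14A plate. CAD, which starts pyrimidine synthesis, stood at 8.78 and 6.55 FPKM in printed cells, against 20.02, 14.9 and 13.3 FPKM in M14A plate (limma log2 fold change -0.97, SE 0.19, adjusted p = 0.0062). It was not called when M14A printed library 2 was omitted (adjusted p = 0.054). DCTPP1, a nucleotide pool cleanser, was higher (log2 fold change 0.81, SE 0.22, adjusted p = 0.022). It was not called when either printed library or M14A plate library 2 or 3 was omitted, and stood at 0.070 at equal FPKM totals (adjusted p = 0.67).

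Of 27 tested genes of E2F, RB and G1/S control (29 listed), M14A plate had 4 lower and 3 higher relative to HepaRG plate. Of the called genes, the cyclin-dependent kinase inhibitors CDKN1A and CDKN2C changed most, in opposite directions. CDKN1A stood at 421, 259 and 254 FPKM in M14A plate, against 33.3, 33.5 and 35.3 FPKM in HepaRG plate. CDKN2C stood at 13.6, 9.06 and 8.32 FPKM in M14A plate, against 23.6, 23.3 and 23.4 FPKM in HepaRG plate. The log2 fold changes of CDKN1A and CDKN2C were 3.12 (SE 0.20) and -1.14 (SE 0.19). Values of the listed inhibitors CDKN1B and CDKN1C are not given here. In printed cells 5 were lower and 1 higher than in M14A plate. E2F2, an activator of S-phase genes, stood at 1.64 and 1.66 FPKM in printed cells, against 5.17, 4.33 and 4.30 FPKM in M14A plate (limma log2 fold change -1.07, SE 0.13, adjusted p = 9.4e-04). CDC25A, the phosphatase that activates CDK2 at the G1/S transition, stood at 3.21 and 3.91 FPKM in printed cells, against 8.79, 8.35 and 7.54 FPKM in M14A plate (limma log2 fold change -1.02, SE 0.13, adjusted p = 0.0012). Both printed libraries lay below all 6 flask libraries in E2F2 and CDC25A, and both calls held under all 21 alternatives.

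Markers of cycling cells moved with the groups. The summed level of MKI67, TOP2A, CCNB1 and CDK1 was 55.5 and 57.5 FPKM in printed cells, 91.8, 88.8 and 89.9 FPKM in M14A plate and 147, 144 and 141 FPKM in HepaRG plate. All 4 reached 1 FPKM in at least 2 libraries. MKI67, the proliferation antigen, stood at 2.94 and 5.67 FPKM in printed cells, 8.67, 19.0 and 16.6 FPKM in M14A plate and 23.9, 27.2 and 26.6 FPKM in HepaRG plate, with no overlap between the groups, and TOP2A did not overlap either. CCNB1 stood at 40.5 and 37.7 FPKM in printed cells, 66.7, 36.9 and 36.5 FPKM in M14A plate and 59.9, 56.4 and 55.5 FPKM in HepaRG plate, so printed cells lay inside the M14A plate range. CDK1 stood at 5.93 and 6.54 FPKM in printed cells, 6.22, 11.4 and 13.2 FPKM in M14A plate and 17.4, 16.4 and 16.9 FPKM in HepaRG plate, where printed cells overlapped M14A plate library 1. The part of these differences in the replication results was not tested.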

How the data were processed

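RNA sequencing of 8 libraries was analysed. The deposited expression values are FPKM made by the authors, who used HISAT2 2.0.5 and featureCounts 1.5.0-p3 per the submitters' processing notes. Their options, strand setting included, were not stated. The names of the value columns gave their samples, and 0 columns had none. All 58735 genes have coordinates identical to GENCODE 29 on GRCh38. After multiplication by gene length, 100% of non-zero values were whole numbers of reads (tolerance 0.01), which gave depths of 15632154 to 19148262 reads, and 1 read on 1 kb equals 0.0435 to 0.0747 FPKM. The authors' denominators follow median-ratio size factors within 0.979 to 1.03 times.

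Genes reaching 1 FPKM in 2 or more libraries were tested with limma 3.58.1 under R 4.3.3, with moderated variances that follow mean level, on log2(FPKM + 1). All 8 libraries entered 1 model with 3 group means. Tests were two-sided, and Benjamini-Hochberg adjustment covered the 14349 genes tested. The spread of the 2 printed libraries is taken from all groups, and both comparisons share the M14A plate libraries. Members and lists were chosen with earlier results of these data known. Values by library are given for members called in either comparison, for the member with the highest mean in a role with none called, and for up to 2 called genes of largest change from each other list. PCNA, POLA2, POLA1, MCM7, CDT1, POLD1 and the ratios were chosen after their values were seen. Recovered reads of replicate pairs differed beyond sampling noise (chi-square over its degrees of freedom 2.84 to 78.0), so none was treated as a duplicate. Overlapping exons and pseudogenes, of which PCNA, RPA2 and RRM2 have 3 listed each, may share reads with members. The test was tried on simulated reads. Alternatives were other pseudocounts, filters and scalings, a model of only 2 groups, variance moderation without the trend, voom weights on recovered reads, a block for replicate number and each library left out. Removal of each library's trend over GC content and length was added after seeing the data.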

Additional observations from a re-analysis of the deposited data

How the results depend on the processing

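Depth is 15632154 reads or more per library, and the lowest member count was 57 reads (POLE2). With 2 printed libraries, small changes cannot be detected, and a member not called is not shown to be equal. For M14A plate minus HepaRG plate, 4 members were called lower and 2 higher. The lower count was 2 at a pseudocount of 0.01 and with no filter, and 11 at equal FPKM totals (12.3%, 6.66% and 23.9% of all genes). With single libraries left out the lower count ran from 1 to 11 and the higher count from 1 to 2. The shares of all genes then ran from 8.61 to 22.7% lower and from 11.1 to 20.3% higher. For M14A printed minus M14A plate, 6 were lower and 6 higher. With no filter 6 were lower and 3 higher (4.45% and 5.6% of all genes). The counts were 27 and 0 at equal FPKM totals (45.7% and 3.27% of all genes), 21 and 1 when those totals left out mitochondrial genes (37.3% and 5.56%), and 2 and 1 with only the 2 groups in the model (8.56% and 9.72%). With single libraries left out the lower count ran from 2 to 13 and the higher count from 1 to 11. The shares of all genes then ran from 8.62 to 27.1% lower and from 7.99 to 28.4% higher.

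With the GC and length trend removed, an alternative chosen after seeing the data, M14A plate minus HepaRG plate had 18 members lower and 3 higher, or 21 and 4 when M14A plate library 1 was also left out. In printed cells 13 were lower than in M14A plate, and 18 without M14A plate library 1. The cause of these moves was not tested.

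Replicate numbers were not taken as pairs: same-numbered libraries had correlations of deviations of -0.07, 0.08 and -0.16 between the plate groups. Between printed and plate M14A they were 0.49 and 0.36, and 2 pairs do not settle whether these numbers mark a shared source. With the replicate block the counts were 4 lower and 2 higher in M14A plate (15.1% and 15.7% of all genes), with POLA1 gained and RPA3 lost. In printed cells they were 3 lower and 4 higher (14.6% and 15.9% of all genes), with MCM2, MCM4, CDC6, GMNN and RFC2 lost.

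Printed minus plate log2 fold changes changed sign for 23 of 45 members at equal FPKM totals and for 20 with mitochondrial genes left out of the totals. Of these, 11 and 15 were called on neither scale, PCNA among them. The values below are of genes called on at least 1 of the 2 scales compared. At equal FPKM totals they were MCM7 -0.58, GINS2 -0.15, ORC6 -0.43, GMNN -0.28, CDC45 -0.37, RFC2 -0.15, RFC5 -0.53, RPA1 -0.48, RPA2 -0.45, RRM2 -0.53, TYMS -0.64, TK1 -0.033 and CDKN1A -0.75. With mitochondrial genes left out of the totals they were MCM7 -0.40, GMNN -0.11, RFC5 -0.38, RPA1 -0.31, TYMS -0.46 and CDKN1A -0.57. With single libraries left out, POLA1 ran from -0.35 (without M14A plate library 1) to 0.19 (without M14A plate library 3). With the GC and length trend removed, PRIM1 was -0.41 and ASF1A -0.42, and without M14A plate library 1 as well ORC5 was -0.27, PRIM1 -0.45, RFC3 -0.43, RFC4 -0.23, RRM1 -0.17 and ASF1A -0.43. In M14A plate minus HepaRG plate, ORC4 turned to 0.28 with the trend removed and to 0.24 without M14A plate library 1 as well. Of 125 values of the 6 called members in that comparison 101 kept direction and call and 24 lost the call; of 251 values of the 12 called in printed cells 178 kept both, 68 lost the call and 5 changed sign.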
